A study of Oryza sativa with 6 samples.

Results

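The rice miRNA families miR820, miR1861, miR1862 and miR1863 were described in germinating rice seeds kept at 25 °C or 35 °C. The members are all names in the deposited table built on the stems mir820, mir1861, mir1862 and mir1863 with no further digit, which gave 26 of 641 names: 3 of miR820, 13 of miR1861, 5 of miR1862 and 5 of miR1863. Several names carry the same counts in all 6 libraries, so the 26 names hold 15 distinct rows of counts, of 475 in the table. Seeds were of the cultivar Kasalath, an aus-type rice, and small RNA was read from 3 libraries per temperature, labelled normal (25 °C) and hot (35 °C), at an age given as 5 days after germination. For both temperatures damp conditions are given as lasting until day 8. All libraries came from whole germinating seeds of 1 cultivar, with no mutant or transgene named. The 25 °C dishes stood in the laboratory under a cardboard box and the 35 °C dishes in an incubator, so temperature and place cannot be told apart. Per the labels' protocols 40 seeds were used, 5 to a dish and 4 dishes per temperature, and the sources used here do not say how dishes map to libraries.

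A plant miRNA is cut from a hairpin transcript by a Dicer-like enzyme and guides an Argonaute protein to complementary transcripts, which are cleaved or kept from being translated. These 4 families are known from rice and its relatives and are not among those conserved across flowering plants. The genes of miR820 lie within DNA transposons of the CACTA type, and miR820 targets the transcript of DRM2, a de novo DNA methyltransferase that acts in transposon silencing. Genes of miR820 and miR1863 are also known in rice to give longer small RNAs, which are made by DCL3, are bound by Argonautes of the AGO4 group and guide DNA methylation. The families miR1861, miR1862 and miR1863 were entered in the miRNA registry from small RNA libraries of rice, and no target is stated for them here.

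Levels are given on 2 scales because they differ. The deposited normalised columns are CPM of a library total, and these totals were 250255 to 275549 at 25 °C and 157488 to 243859 at 35 °C. The summed counts of the table, which enter many reads under several names, ran from 136294 to 203192 at 25 °C and from 169694 to 377473 at 35 °C. With identical rows once they ran from 120693 to 179999 and from 150369 to 332378. These sums still exceeded the library total in hot library 2 (291655 against 240428) and hot library 3 (332378 against 243859). In the normal libraries they lay well below it, so the total relates to the counts differently in the groups. TMM scaling, which sets the typical name to no change, gave a median log2 fold change of 0.0059 over 253 names tested, and the library totals gave 0.99 over 266. A total-scaled CPM is thus relative to the library total, and a TMM value is relative to the other miRNA names. The names of each family were added up (identical rows once). Set against the library total, which is thus not a plain sum of these counts, the 4 families came to 0.110 to 0.135% at 25 °C and 0.260 to 0.353% at 35 °C. Of the column sums, also with identical rows once, they made up 0.206 to 0.230% and 0.215 to 0.294%, and there the groups overlapped.

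Within miR1861 one set of names fell at 35 °C while another held more of the family's reads. The names mir1861h and mir1861j, which share 1 row, had 19, 28 and 15 counts at 25 °C (normal libraries 1 to 3) and 1, 10 and 11 at 35 °C (hot libraries 1 to 3). The names mir1861b, mir1861f, mir1861i and mir1861l, which share another row, had 61, 71 and 45 counts at 25 °C and 185, 170 and 233 at 35 °C. In these unscaled counts every hot library was thus lower than every normal library in the first row and higher in the second. The share of all names that separate in unscaled counts was not computed. In whole seeds, fewer cells that make a miRNA and less of it per cell cannot be told apart.

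In total-scaled CPM, mir1861h was at 71.9, 112 and 54.4 at 25 °C and at 6.35, 41.6 and 45.1 at 35 °C. The groups did not overlap, and in 2.37% of all names tested the hot libraries lay wholly below in this way. The single count in hot library 1 has an exact Poisson 95% interval of 0.161 to 35.4 CPM, which covers counting error only. The row mir1861b was at 231, 284 and 163 total-scaled CPM at 25 °C and at 1175, 707 and 955 at 35 °C, a ratio of group means of 4.18, and 43.1% of names lay wholly above at 35 °C. Hot library 1, which had the lowest library total, was highest for mir1861b and lowest for mir1861h. The groups did not overlap on the TMM scale either: mir1861h had 131 ± 65.5 against 22.7 ± 14.2 CPM and mir1861b had 372 ± 158 against 784 ± 341 CPM (25 °C against 35 °C, SD, n = 3 each). On that scale 28.5% of names lay wholly below and 30.4% wholly above at 35 °C.

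In edgeR's quasi-likelihood test over all names with TMM scaling, 2 of the 11 member names that passed the filter on low counts were called, both lower, where 22.9% of all names tested were called and 15.8% were called lower. These 2 names are mir1861h and mir1861j, hence 1 of 5 distinct member rows tested. When rows taken as the same reads were entered once, 1 of 5 member rows was called, lower. In that fit 58 of all 166 rows tested were called, 27 of them lower. In the edgeR fit over all names, mir1861h and mir1861j had a log2 fold change of -2.38, with an SE of 0.66 (adjusted p = 0.0433). The row mir1861b had 1.08 (SE 0.44, adjusted p = 0.0951) and was not called under TMM. With the library totals the calls changed places: mir1861b was called higher at 2.06 (SE 0.36, adjusted p = 0.0035), as were 32.3% of all names tested there, and mir1861h had -1.29 (SE 0.68, adjusted p = 0.168). The DESeq2 test called both rows, mir1861b at 1.21 (adjusted p = 0.0244) and mir1861h at -2.29 (adjusted p = 0.0177), in a fit that called 41.1% of all names. Both kept their direction in each of the 13 alternatives tried. The call of mir1861h under TMM did not survive leaving out normal library 1 (adjusted p = 0.0837), normal library 2 (0.17), hot library 2 (0.0655) or hot library 3 (0.0696). It was made again when normal library 3 (adjusted p = 0.0366) or hot library 1 (0.038) was left out.

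**Figure D1:**
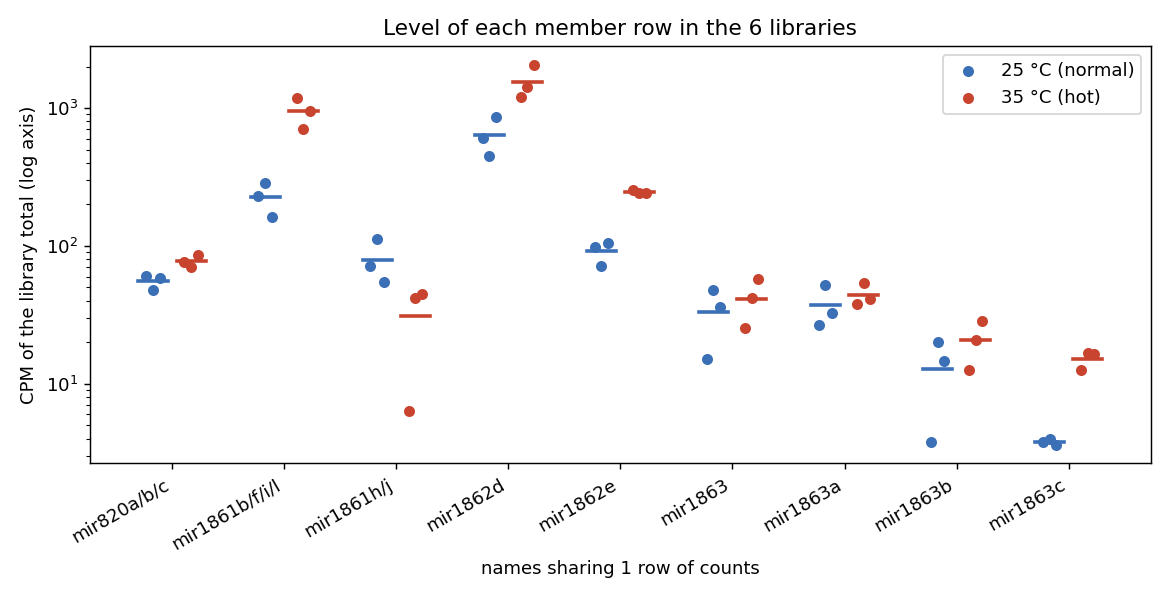
CPM of the library total (log axis) for the 9 member rows with at least 10 counts over the 6 libraries. Points are single libraries (blue 25 °C, red 35 °C) and lines are group means. The row mir1861b lies at 163 to 284 at 25 °C and 707 to 1175 at 35 °C, while mir1861h lies at 54.4 to 112 and at 6.35 to 45.1.

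The share of a name within its family does not depend on how libraries are scaled. The row mir1861h held 22.4%, 27.5% and 24.2% of miR1861 counts (identical rows added once) in normal libraries 1 to 3 against 0.535%, 5.56% and 4.51% in hot libraries 1 to 3. The exact binomial 95% intervals did not overlap between the groups: the lowest bound in the normal libraries was 14% and the highest in the hot libraries was 9.98%. These intervals cover counting error only and leave out the spread between libraries, so they are no test of temperature. The row mir1861b held 69.6 to 72.6% of the family at 25 °C and 94.4 to 98.9% at 35 °C. For each mir1861h count there were 3.21, 2.54 and 3 mir1861b counts at 25 °C and 185, 17 and 21.2 at 35 °C.

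The log2 ratio of mir1861b to the rest of its family went from a mean of 1.30 ± 0.10 to 4.86 ± 1.18 (SD, n = 3 each), a difference of 3.56, and the ratio of mir1861h to the rest differed by -3.52. These are 2 views of nearly the same counts. The exact two-sided permutation test gave p = 0.1 for each, the smallest that 3 against 3 libraries allow, and 0.267 after Benjamini-Hochberg adjustment over 8 member rows, so neither passed. Leaving out each library in turn gave differences of 2.89 to 3.98 for mir1861b, the lowest without hot library 1. Among 311 rows of 27 families for which the same ratio could be formed, mir1861b had the greatest and mir1861h the second greatest size of difference, beside a median size of 0.25, and the groups did not overlap in 34.1% of those rows. Rows of a family share reads, so these 311 are not separate measurements.

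**Figure D2:**
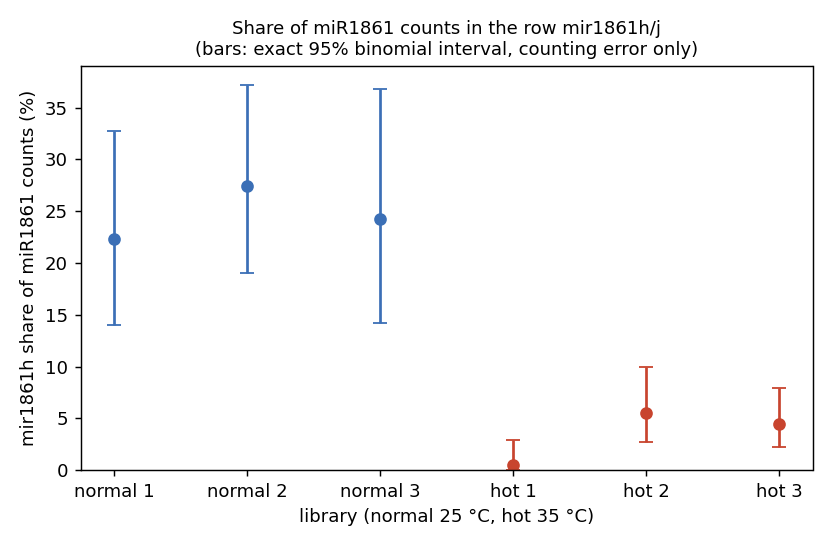
Percent of miR1861 counts (identical rows added once) that lie in the row shared by mir1861h and mir1861j, by library. Bars are exact 95% binomial intervals, which cover counting error only. The normal libraries lie at 22.4 to 27.5% and the hot libraries at 0.535 to 5.56%.

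The other 7 miR1861 names had at most 5 counts over all libraries and were not tested. The row of mir1861e, mir1861k and mir1861m had 3, 2 and 0 counts at 25 °C and none at 35 °C, where a count of 0 allows up to 3 counts of the pooled total, or 4.67 CPM. The row of mir1861a and mir1861o had 1 count in each normal library and in hot library 1. The names mir1861c and mir1861g had 1 count each, both in a normal library. At this depth no difference can be read from these rows.

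The miR1862 family was the most abundant of the 4, 13th of 113 families by mean total-scaled CPM, and its reads lay in mir1862d and mir1862e. The name mir1862d had 161, 112 and 239 counts at 25 °C and 189, 339 and 501 at 35 °C. In total-scaled CPM these were 610, 448 and 867 against 1200, 1410 and 2054, with no overlap between the groups. The name mir1862e had 26, 18 and 29 counts at 25 °C and 40, 58 and 59 at 35 °C, or 98.4, 71.9 and 105 against 254, 241 and 242 CPM. On this scale every hot library was above every normal library for both names, as for mir1861b and for 43.1% of all names tested.

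With the library totals edgeR's quasi-likelihood test called both names higher, mir1862d at 1.28 (SE 0.34, adjusted p = 0.0185) and mir1862e at 1.41 (SE 0.40, adjusted p = 0.0243). In that fit 32.3% of all names were called higher, the median was 0.99, and 69 and 61 of 266 names had higher values than mir1862d and mir1862e. Under TMM neither was called, with 0.31 (SE 0.18, adjusted p = 0.198) and 0.47 (SE 0.32, adjusted p = 0.278), and the groups overlapped on that scale. Their proportion overlapped between the groups. There were 6.19, 6.22 and 8.24 mir1862d counts per mir1862e count at 25 °C and 4.72, 5.84 and 8.49 at 35 °C. The log2 ratio of mir1862d to the rest of the family differed by -0.12 between the groups (2.73 ± 0.21 against 2.60 ± 0.42, SD, n = 3 each, exact permutation p = 0.8). The row of mir1862a, mir1862b and mir1862c had 1 count in normal library 3 and 1 in hot library 3.

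The miR820 names mir820a, mir820b and mir820c share 1 row, so the family is a single measurement. It had 16, 12 and 16 counts at 25 °C and 12, 17 and 21 at 35 °C. In total-scaled CPM these were 60.6, 48.0 and 58.1 against 76.2, 70.7 and 86.1, a ratio of group means of 1.40. The groups did not overlap, with the hot libraries wholly above, as in 43.1% of all names tested. On the TMM scale the order turned, with 88.1 ± 21.8 CPM at 25 °C and 62.5 ± 11.9 at 35 °C (SD, n = 3 each), and the groups overlapped. In edgeR it had -0.50 (SE 0.40, adjusted p = 0.372) under TMM and 0.48 (SE 0.46, adjusted p = 0.395) with the library totals, called in neither. With these few counts neither direction holds across the scalings.

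The miR1863 names had few counts, at most 14 in a library, and none passed the filter under TMM. The name mir1863a had 7, 13 and 9 counts at 25 °C and 6, 13 and 10 at 35 °C, or 37.0 ± 13.3 against 44.4 ± 8.51 total-scaled CPM (SD, n = 3 each). The name mir1863 had 4, 12 and 10 against 4, 10 and 14 counts. For both the groups overlapped, and with the library totals, where they passed the filter, their log2 fold changes were 0.27 (adjusted p = 0.669) and 0.34 (adjusted p = 0.646). The row mir1863 appears to repeat the reads of mir1863b, which had 1, 5 and 4 against 2, 5 and 7 counts. Its deposited normalised values match the sum of 2 equal entries rounded one by one. Each such entry equals mir1863b in all 3 hot libraries and exceeds it by 1 count in all 3 normal libraries.

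The name mir1863c was the member of its family that stood apart by level, with 1 count in each normal library and 2, 4 and 4 at 35 °C. These were 3.63 to 4.00 total-scaled CPM against 12.7 to 16.6, with no overlap on this scale or under TMM. Hot libraries also lay wholly above in 43.1% and 30.4% of all names tested on these scales, while mir1863c did not pass the filter. The pooled counts of 3 and 10 gave a ratio of 4.10 with an exact binomial 95% interval of 1.06 to 23.2, which leaves out the spread between libraries. Its log2 ratio to the rest of miR1863 differed by 1.18 (exact permutation p = 0.1, adjusted 0.267 over 8 rows), a size that ranked 49th of the 311 rows. At counts this low the separation of the groups in this ratio rested on the pseudocount: with 1 in place of 0.5 the difference was 0.96 and the groups overlapped (exact permutation p = 0.2). With mir1863 left out of the rest it was 1.15 (exact permutation p = 0.1). The name mir1863b-2 had 1 count, in hot library 3.

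As family sums, none of the 4 was called in edgeR's quasi-likelihood test, where 34.4% of 32 families tested were called under TMM. None was called by the DESeq2 test, where 40.6% of families were, nor with the library totals, where 31.2% were. At an unadjusted p under 0.05 the number was 0 of 4 under TMM, 1 in the DESeq2 test and 2 with the library totals, beside 12, 16 and 15 of all 32 families. The miR1861 sum went from 318 ± 91.3 to 979 ± 220 total-scaled CPM (SD, n = 3 each) and had 0.98 (SE 0.54, adjusted p = 0.224) as its log2 fold change under TMM. The miR1862 sum went from 735 ± 230 to 1802 ± 443 CPM, with 0.69 (SE 0.35, adjusted p = 0.2). The miR1863 sum had 86.7 ± 37.3 and 123 ± 30.6 CPM, but 53.6 ± 21.1 and 81.7 ± 15.8 CPM without mir1863. The reads of mir1863 appear to repeat those of mir1863b. The miR820 row had 55.5 ± 6.68 and 77.7 ± 7.81 CPM. On this scale the hot libraries lay above the normal ones without overlap for miR820, miR1861 and miR1862 (exact permutation p = 0.1 each, 0.133 adjusted over 4 families) and overlapped for miR1863 (p = 0.2). Of all 32 families 34.4% lay wholly above in this way. With column sums as the denominator the separation was lost for miR1861 (log2 ratio of means 0.50, exact permutation p = 0.5) and miR1862 (0.19, p = 0.4). There miR820 lay wholly below at 35 °C (-0.63, exact permutation p = 0.1). The share of all families that lay wholly below with that denominator was not computed. The miR1861 sum does not show the fall of mir1861h, which is the smaller part of the family.

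**Figure D3:**
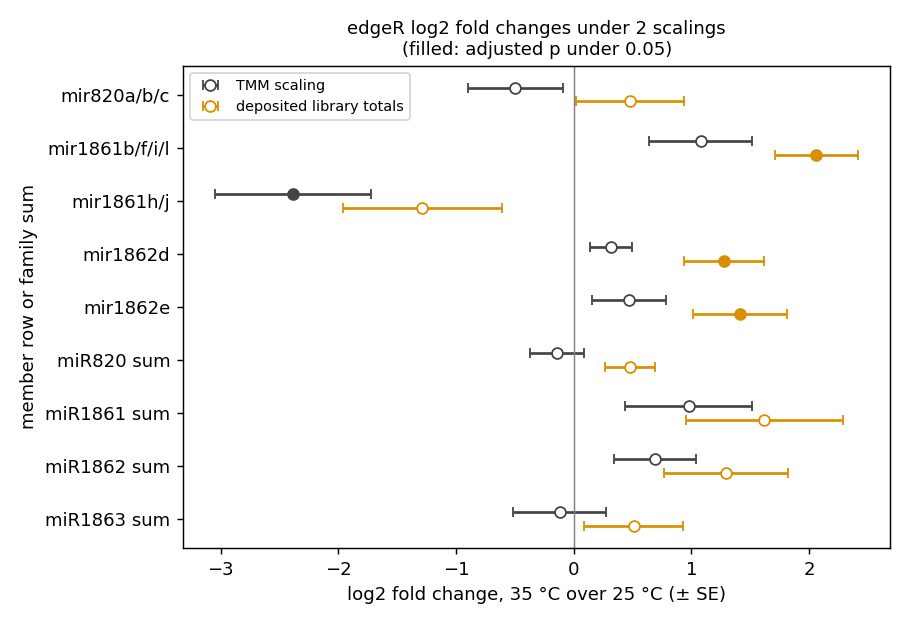
Log2 fold change of 35 °C over 25 °C, with its SE, for the 5 member rows tested and the 4 family sums, under TMM scaling (black) and with the deposited library totals (orange). Filled points have an adjusted p under 0.05. The row mir1861h is at -2.38 and -1.29 and mir1861b at 1.08 and 2.06, while mir820a is at -0.50 and 0.48.

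By level miR1862 came first and miR1861 second at both temperatures, without overlap between them or with the other families. The order of miR1863 and miR820 was not settled. Without mir1863, the miR1863 sum had 34.1 to 75.9 CPM at 25 °C and 63.5 to 91.5 at 35 °C, which overlapped the 48.0 to 60.6 and 70.7 to 86.1 of miR820. With mir1863 its mean was above that of miR820 at both temperatures, and without it below at 25 °C. Ratios between families, which do not depend on scaling, were compared for all 6 pairs. The log2 ratio of miR820 to miR1861 went from -2.44 ± 0.56 to -3.59 ± 0.28 and that of miR820 to miR1862 from -3.64 ± 0.34 to -4.47 ± 0.26 (SD, n = 3 each). In these 2 pairs the groups did not overlap (exact permutation p = 0.1 each, 0.3 adjusted over 6 pairs). In the other 4 pairs they overlapped, with differences of 1.06 for miR1861 to miR1863 and 0.74 for miR1862 to miR1863 (exact permutation p = 0.2 each), 0.32 for miR1861 to miR1862 (p = 0.7) and -0.09 for miR820 to miR1863 (p = 0.9). Without mir1863 the 3 of these that include miR1863 were 0.98, 0.66 and -0.17. No pair passed, and 3 against 3 libraries could not have passed. The share of all family pairs whose groups separate in this way was not computed, so the 2 pairs of 6 cannot be called unusual.

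Among 28 other family sums tested, those most like each member family were found by the Pearson correlation of log2 CPM over the 6 libraries, which fall into 2 temperature groups and share their scaling. For miR1861 these were miR5144 (0.82), miR396 (0.71) and miR395 (0.66), and for miR1862 they were miR156 (0.90), miR396 (0.87) and miR5144 (0.86). For miR820 the values were lower, with miR395 (0.61), miR162 (0.60) and miR159 (0.57). For miR1863, with mir1863 in its sum, they were miR167 (0.71), miR169 (0.68) and miR160 (0.64). Of these, miR5144, miR396 and miR156 were called higher as family sums under TMM and miR159 lower.

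Other rice families with registry numbers close to those of miR1861, miR1862 and miR1863 gave almost no reads. Of 25 such names in 17 families none passed the filter, and the most abundant, mir1871, had 7, 1 and 8 counts at 25 °C and 1, 1 and 3 at 35 °C. The next were mir1878, with 2, 2 and 8 against 1, 1 and 2 counts, and mir1876, with 2, 0 and 6 against 1, 0 and 1. The families miR162 and miR168, which target transcripts of a Dicer-like enzyme and an Argonaute and so act on the small RNA pathway as miR820 does on DNA methylation, had 14 names tested. None was called under TMM, with a median log2 fold change of -1.13 for miR162 and -0.28 for miR168 beside 0.0059 for all names. With the library totals 1 of the 14 was called, higher, and the medians were -0.21 and 0.63 beside 0.99.

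**Figure D4:**
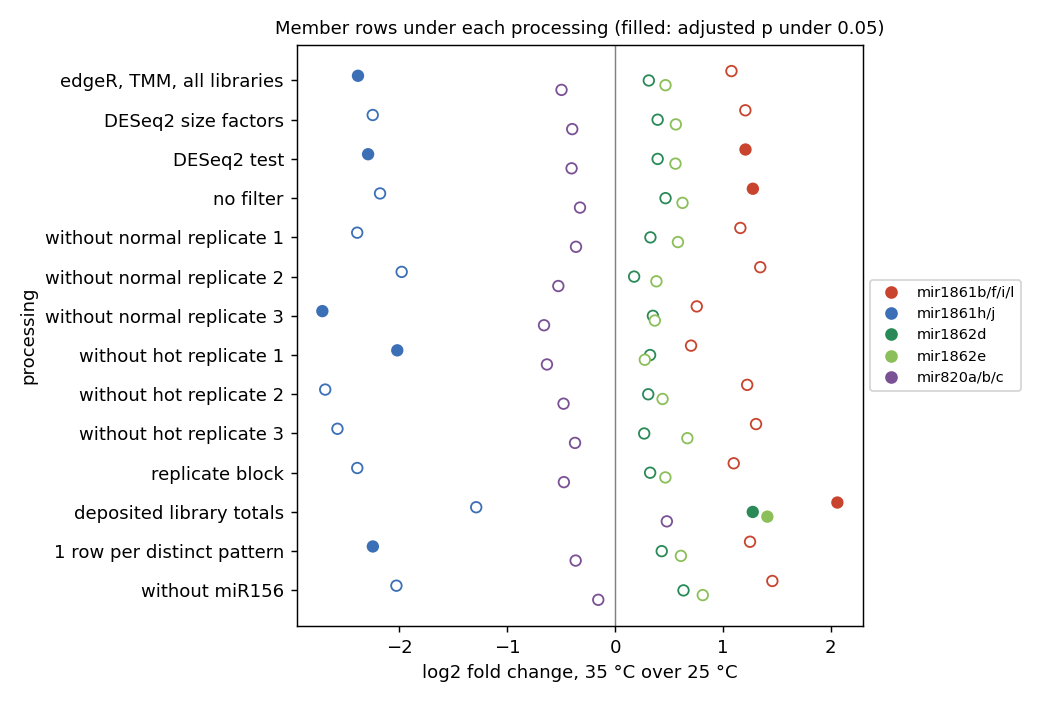
Log2 fold change of 35 °C over 25 °C for the 5 member rows tested, under each way of processing. Filled points have an adjusted p under 0.05. All points of mir1861h are below 0 (-2.72 to -1.29) and all of mir1861b above 0 (0.70 to 2.06), while mir820a is above 0 only with the deposited library totals (0.48).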

How the data were processed

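Per the labels' protocols, extraction used a mirVana kit, libraries a NEBNext small RNA kit, and sizes were selected on beads. The raw columns hold the authors' counts per miRNA name, per the file headers. The deposited normalised columns are a signal, the count relative to 1 total per library on a CPM scale, and that total was recovered here from rows with over 20 counts. The sources used here do not give the matching tool, the miRNA release or what that total counts. No sequence was used. Rows that are identical, or whole multiples within a family, were taken as the same reads. The main fit over names nevertheless kept every row, and the family sums left out identical rows but not multiples. Only the alternative with 1 row per distinct pattern entered each set once. The member names had 15 distinct rows and 15 distinct patterns, so no member row was a whole multiple of another.

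Counts of all names were fitted in edgeR 4.0.16 (R 4.3.3; filterByExpr, TMM, quasi-likelihood F test, group only), with Benjamini-Hochberg adjusted p under 0.05 as the threshold. SE is the log2 fold change over the square root of F. Family sums add identical rows once and were fitted apart, so the 2 TMM scalings differ: miR820 had -0.50 as a name and -0.14 as a sum. Ratios within a library used a pseudocount of 0.5 and the exact two-sided permutation test in SciPy 1.17.1. Alternatives were DESeq2 1.42.0 (size factors or test), no filter, each library left out, a replicate block, library totals, 1 row per distinct pattern and no miR156 names. Only the edgeR fit over names with TMM was run on simulated data, in which rows were drawn independently, unlike the shared rows here. The other fits were not tested in this way.

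The labels and design text call the libraries of a temperature triplicates but do not tie them to separate dishes, so p-values measure the spread between libraries, which may be partly technical. Libraries of a group differed beyond counting error (chi-square over its degrees of freedom, 5.13 to 23.2), so none was a copy. The members and lists were chosen with earlier results of these data known. Every member row with at least 10 counts is named with values. Of other families, the 3 most correlated with each member family and the 3 most abundant neighbour-numbered names are named.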

Additional observations from a re-analysis of the deposited data

How the results depend on the processing

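Counts were few, with 94 in all for miR820 and at most 58 in a miR1863 row, so small differences were not detectable. Of the 26 member names, 11 were tested under TMM and 2 of these were called. The number was 0 of 11 with DESeq2 size factors, without miR156 and with the replicate block. It was 4 of 26 without a filter, 6 of 13 with the library totals, 6 of 11 in the DESeq2 test, and 0 to 2 when leaving out a library. With 1 row per distinct pattern it was 1 of 5. That is the row of mir1861h and mir1861j entered once, which kept its call (edgeR adjusted p = 0.0279). The other counts are of names, and names that share a row are not separate results. Without a filter the 4 names are the row mir1861b. In the DESeq2 test the 6 names are the rows mir1861b and mir1861h. With the library totals the 6 names are the row mir1861b with mir1862d and mir1862e, among 7 rows tested. Over all names 58 of 253 were called (18 higher, 40 lower). This became 31 of 253 with DESeq2 size factors, 104 of 253 in the DESeq2 test and 25 of 219 without miR156. With 1 row per distinct pattern it was 58 of 166. Without a filter 51 of 641 were higher and 15 lower, and with the library totals 86 of 266 were higher and 1 lower. Leaving out a library gave 26 (without normal library 2) to 120 (without hot library 1). Of 32 family sums 11 were called, 5 of 113 without a filter, and 3 (without hot library 3) to 12 when leaving out a library.

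The log2 fold change of mir1861h lost its call with DESeq2 size factors (-2.25), without a filter (-2.18), with the replicate block (-2.39), with the library totals (-1.29) and without miR156 (-2.03). Leaving out a library gave -2.72 to -1.98. For mir1861b a call appeared in the DESeq2 test (1.21), with no filter (1.28) and with the library totals (2.06), where mir1862d (1.28) and mir1862e (1.41) were called too. The cause was not tested, beyond the library totals moving the median of all names to 0.99. The value of mir820a and of the miR820 sum turned to 0.48 with the library totals, and the sum lay between -0.26 and 0.037 when leaving out a library. The miR1863 sum turned to 0.51 with the library totals and to 0.0029 without a filter, and lay between -0.35 and 0.33 when leaving out a library. Without mir1863, an alternative chosen after seeing the data, it was -0.02. With column sums as the denominator, the log2 rate ratio turned to -0.63 for miR820 and -0.65 for miR1863, and was 0.50 for miR1861 and 0.19 for miR1862 in place of 1.62 and 1.29.

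Ratios with each library left out, also chosen after seeing the data, ranged from -0.48 to 0.33 for miR820 to miR1863, from -0.14 to 0.74 for miR1861 to miR1862, from -0.35 to 0.066 for mir1862d to its rest and from -0.061 to 0.36 for mir1862e. Without mir1863 the ratio of mir1863a to its rest went from -0.43 to -0.88. In all, 98 of 118 values of member rows and family sums kept direction and side of the threshold, and 125 of 133 ratios and rates kept direction. No ratio or rate could pass the threshold with so few libraries.

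No pairing is stated for the shared replicate numbers. The deviations of same-numbered libraries from their group means correlated at 0.50, -0.32 and 0.03 over 253 names. Those of different-numbered libraries ran from -0.55 (normal 3 with hot 1) to 0.64 (normal 3 with hot 2). Deviations from a mean of 3 libraries are linked, so these values cannot decide whether the numbers pair the libraries. With the replicate block 28 names were higher and 35 lower.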
